A study of Homo sapiens with 4 samples.

Results

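The genes examined here were 9 members of the MHC class I antigen presentation pathway: the heavy chains HLA-B, HLA-C and HLA-E, their shared light chain B2M, the peptide-loading genes TAP1 and TAPBP, the immunoproteasome subunits PSMB8 and PSMB9, and the transcriptional activator NLRC5. They were picked by gene symbol from the 33538 genes of the count matrices, and all 9 were found. Single-cell RNA sequencing had been carried out on LNCaP, a human prostate cancer cell line, and on lines derived from it, giving 4 groups of 1 library each. LNCaP cells had received 0.1% DMSO, the drug's solvent, for 48 h, and LNCaP-ENZ48 were the same cells given 10 µM of the androgen receptor antagonist enzalutamide (ENZ) for 48 h. RES-A and RES-B were enzalutamide-resistant LNCaP derivatives maintained in 10 µM ENZ, RES-A made by passage in rising doses of the drug and RES-B by long exposure to the related antiandrogen RD-162. Each is a single derived line, so a difference between RES-A and RES-B is between those lines and cannot be told apart from other changes during their culture.

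Class I molecules show short peptides from inside the cell to CD8 T cells. The proteasome cuts proteins into peptides, TAP carries the peptides into the endoplasmic reticulum, tapasin holds the empty heavy chain beside TAP, and a heavy chain bound to B2M then takes its peptide to the surface. Interferon raises nearly the whole pathway through factors such as IRF1 and NLRC5, and prostate tumours are known for low class I expression.

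The kept cells numbered 1782 in LNCaP and 4315 in LNCaP-ENZ48, against 4061 in RES-B and 4569 in RES-A, with 50208831 to 60838227 UMIs (unique molecular identifiers, each marking 1 captured RNA molecule) per library. The LNCaP library stood apart in depth, with a median of 27079 UMIs per cell against 12138 to 13676 in the others, and library pairs shared 2 to 9 cell barcodes. All 8 luminal prostate markers were found in every library, their summed level lying between 1741 and 2337 CPM (UMIs per 1000000 UMIs of the library). Of the 10 leukocyte markers, PTPRC, CD3E, MS4A1 and NKG7 had no UMI in any library. That allows at most 0.0598 CPM each at 3 counts. The list summed to 0.647 to 2.96 CPM, highest in RES-A. Of the 170 UMIs of the list in RES-A, 96 were of HLA-DRA, which is also a class II gene, and 58 of CD68. Both genes were found in every library. LYZ and TYROBP were found in RES-A only, with 6 and 5 UMIs. Fibroblast markers summed to 2.02 to 3.62 CPM and endothelial markers to 0.115 to 1.04 CPM. With 1 library per group no test between conditions was possible, and every 95% interval given for a level, share or ratio covers counting error only.

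To determine how class I genes differed between the sensitive and resistant cells, UMIs were first summed over the cells of each library. RES-B had the highest level of both classical heavy chains and of tapasin, while B2M was nearly level in all 4 libraries. In RES-A the same heavy chains were the lowest of the 4, and PSMB8 had nearly vanished. After 48 h of ENZ, no member was past 2-fold, where only 2.04% of the genes whose mean reached 1 CPM were.

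**Figure D1:**
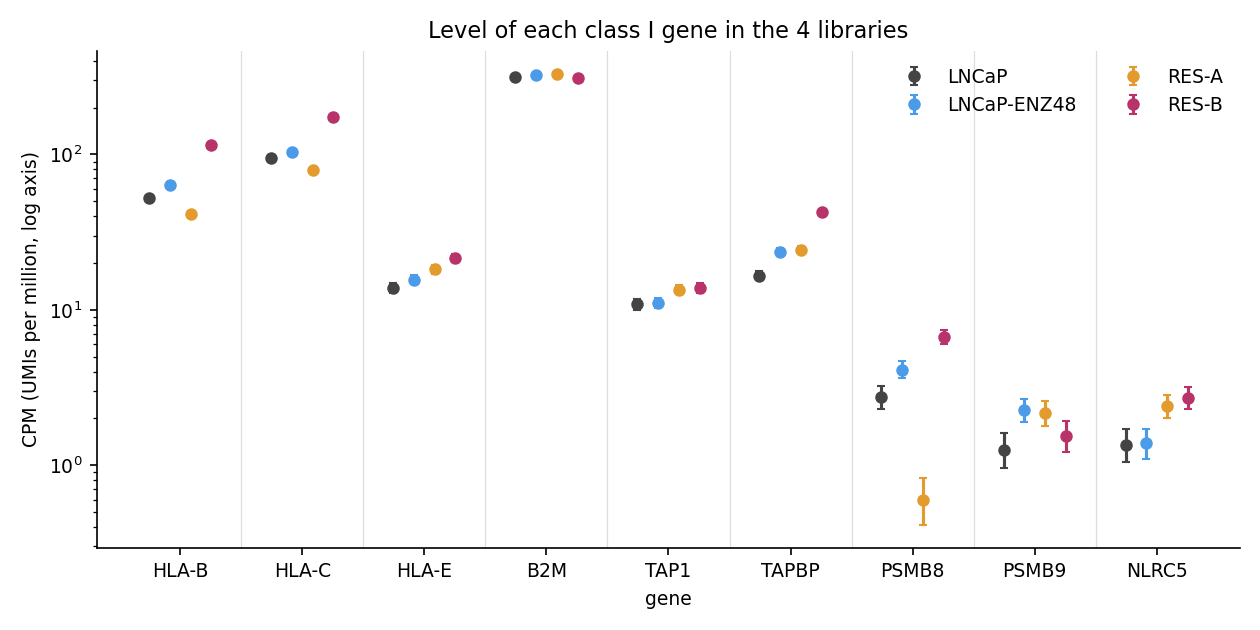
Level of each of the 9 class I genes in the 4 libraries in CPM on a log axis, with exact 95% Poisson intervals (1 library per group, counting error only). RES-B lies highest for HLA-B, HLA-C and TAPBP, B2M is nearly flat, and PSMB8 in RES-A stands alone at 0.593 CPM.

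HLA-B, a classical heavy chain that presents peptides to T cells, is encoded on the minus strand of chromosome 6 (GRCh38, chr6:31353872-31367067). Its level was 52.2 CPM in LNCaP and 63.8 in LNCaP-ENZ48, against 115 in RES-B and 41.1 in RES-A. None of the 4 intervals overlapped, and the order was RES-A, LNCaP, LNCaP-ENZ48, RES-B. The log2 CPM ratio of RES-B to LNCaP was 1.14 (95% interval 1.08 to 1.21), and that of RES-B to RES-A was 1.49 (1.42 to 1.56). HLA-C, the neighbouring classical heavy chain (chr6:31268749-31272130, minus strand), measured 94.96 CPM in LNCaP and 104 in LNCaP-ENZ48, against 174 in RES-B and 79.8 in RES-A. It kept the order of HLA-B, again without overlap, with log2 ratios of 0.87 (0.82 to 0.92) for RES-B to LNCaP and 1.12 (1.07 to 1.17) for RES-B to RES-A. In RES-A the log2 ratio to LNCaP was -0.34 for HLA-B and -0.25 for HLA-C, with intervals of -0.42 to -0.26 and -0.31 to -0.19.

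HLA-E, a heavy chain of low diversity read mainly by natural killer cell receptors (chr6:30489509-30494194, plus strand), followed another order. Its level was 13.7 CPM in LNCaP and 15.7 in LNCaP-ENZ48, against 21.5 in RES-B and 18.2 in RES-A. Both resistant lines lay above LNCaP, with log2 ratios of 0.40 (0.26 to 0.54) in RES-A and 0.64 (0.51 to 0.78) in RES-B. The heavy chain genes resemble each other, reads that match more than 1 of them were not counted, and LNCaP's own alleles may differ from the reference, so each level is uncertain, while the ratio of 1 gene between libraries of 1 line shares that loss.

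B2M, the invariant light chain of every class I molecule, lies on chromosome 15 (chr15:44711358-44718851, plus strand). It measured 313 CPM in LNCaP and 324 in LNCaP-ENZ48, against 309 in RES-B and 328 in RES-A. The largest in size of the 4 log2 ratios was -0.08 (-0.11 to -0.05), for RES-B to RES-A, and under another scaling the B2M ratio of RES-B to LNCaP moved from -0.02 to -0.12. The classical heavy chains thus differed between libraries where their light chain barely did. For each 100 B2M UMIs there were 47.0 HLA-B and HLA-C UMIs in LNCaP and 51.6 in LNCaP-ENZ48, against 93.5 in RES-B and 36.9 in RES-A, and the RES-B interval of 91.5 to 95.6 lay far from the others. This ratio compares UMIs captured per transcript, not protein.

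Since HLA-B and HLA-C differed alike between libraries and B2M did not, their promoters are shown from RefSeq (GRCh38.p14), each as the 250 bases before the annotated start. Such a window existed for 7 of the 9 members. TAPBP and PSMB8, the other members past 2-fold in RES-B with a window, are printed with them. Capitals mark the letters searched for on both strands: GAAANNGAA and the same blocks in the other order, GAANNGAAA, (interferon-stimulated response element core), TTCNNNGAA (gamma-activated site), GGNNTTTCC (kappa B core), CCAAT and TGACG (cyclic AMP response element core). These sequences are those of the reference, not of LNCaP.
HLA-B, chr6:31357180-31357429, minus strand: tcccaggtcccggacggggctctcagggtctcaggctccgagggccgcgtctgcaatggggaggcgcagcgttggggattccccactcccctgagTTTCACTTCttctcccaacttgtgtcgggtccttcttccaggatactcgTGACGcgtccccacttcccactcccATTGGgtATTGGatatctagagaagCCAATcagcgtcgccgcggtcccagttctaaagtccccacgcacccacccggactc
HLA-C, chr6:31272093-31272342, minus strand: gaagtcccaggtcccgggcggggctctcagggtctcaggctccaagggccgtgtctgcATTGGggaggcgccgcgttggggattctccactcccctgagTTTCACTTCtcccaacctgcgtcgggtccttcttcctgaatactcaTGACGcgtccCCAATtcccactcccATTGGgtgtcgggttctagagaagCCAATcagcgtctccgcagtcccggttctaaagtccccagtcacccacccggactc
TAPBP, chr6:33314079-33314328, minus strand: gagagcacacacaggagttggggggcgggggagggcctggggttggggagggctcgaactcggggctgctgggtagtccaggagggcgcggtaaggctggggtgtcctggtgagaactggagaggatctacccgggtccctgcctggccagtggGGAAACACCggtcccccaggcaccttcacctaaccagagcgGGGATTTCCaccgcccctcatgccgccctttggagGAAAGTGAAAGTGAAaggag
PSMB8, chr6:32844680-32844929, minus strand: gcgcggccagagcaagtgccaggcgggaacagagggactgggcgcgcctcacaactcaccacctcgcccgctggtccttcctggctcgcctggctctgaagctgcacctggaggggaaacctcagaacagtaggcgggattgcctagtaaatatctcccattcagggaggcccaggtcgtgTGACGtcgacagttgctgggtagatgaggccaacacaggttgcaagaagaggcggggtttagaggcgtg
B2M, chr15:44711267-44711516, plus strand: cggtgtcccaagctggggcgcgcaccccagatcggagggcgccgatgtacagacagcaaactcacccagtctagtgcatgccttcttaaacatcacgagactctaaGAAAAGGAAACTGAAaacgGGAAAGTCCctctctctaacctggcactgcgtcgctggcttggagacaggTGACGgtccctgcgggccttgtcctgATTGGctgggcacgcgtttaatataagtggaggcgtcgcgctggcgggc

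The HLA-B and HLA-C windows were 89.0% identical over an alignment of 254 bases. Both held GAANNGAAA on the strand opposite the gene, where the printed letters read as its reverse complement, 155 to 147 bases before the start in HLA-B and 151 to 143 in HLA-C, a motif present in 6.56% of all 35116 windows and added to the search after the sequences had been seen. Both also held TGACG, at 106 to 102 and 105 to 101 bases before the start, and several CCAAT boxes, letters that occur in 21.2% and 32.0% of all windows. B2M shared TGACG and CCAAT with them but held GAAANNGAA in place of GAANNGAAA. It also matched GGNNTTTCC, the only kappa B pattern searched for, which they did not. Other kappa B forms were not searched for, so this difference rests on the pattern chosen. It does not show that the HLA-B and HLA-C windows lack a kappa B site. The B2M matches were an overlapping pair of GAAANNGAA from 144 to 130 bases before the start and a kappa B core at 125 to 117. The B2M window also held TGACG at 75 to 71 and CCAAT at 49 to 45. GAAANNGAA occurs in 6.88% of windows and the kappa B core in 5.48%. The TAPBP window held overlapping GAAANNGAA matches 20 to 6 bases before the start and kappa B cores at 96 to 88 and 55 to 47. The PSMB8 window held only TGACG, and the window of its other annotated start only TTCNNNGAA, found in 6.57% of windows. Each match is a description of letters, not a site shown to act in these cells.

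TAP1 and TAPBP serve peptide loading. TAP1, a subunit of the peptide transporter (chr6:32845209-32853816, minus strand), measured 10.9 CPM in LNCaP and 11.0 in LNCaP-ENZ48, against 13.7 in RES-B and 13.5 in RES-A. Both resistant lines lay above both sensitive libraries, by log2 ratios to LNCaP of 0.31 (0.15 to 0.47) in RES-A and 0.34 (0.18 to 0.50) in RES-B, and did not differ from each other beyond counting error (0.03, -0.12 to 0.17). TAPBP, which encodes tapasin (chr6:33299694-33314284, minus strand), measured 16.6 CPM in LNCaP and 23.6 in LNCaP-ENZ48, against 42.4 in RES-B and 24.3 in RES-A. The intervals of LNCaP-ENZ48 and RES-A overlapped, and those of LNCaP below and RES-B above stood clear of them. The log2 ratio to LNCaP was 0.51 (0.39 to 0.64) after 48 h of ENZ, 0.55 (0.43 to 0.68) in RES-A and 1.36 (1.24 to 1.47) in RES-B.

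PSMB8 and PSMB9 replace the standard catalytic subunits PSMB5 and PSMB6 in the immunoproteasome, whose cuts suit class I binding. PSMB8 (chr6:32840717-32844679, minus strand) measured 2.73 CPM in LNCaP and 4.13 in LNCaP-ENZ48, against 6.70 in RES-B and 0.593 in RES-A. None of these intervals overlapped. In RES-A the count was 34 UMIs, each in a different cell of the 4569, and the log2 ratio to LNCaP was -2.20 (-2.79 to -1.65). RES-B lay 1.30 above LNCaP (1.01 to 1.59) and 3.50 above RES-A (2.99 to 4.05) on the log2 scale, the widest gap of any member. PSMB9 (chr6:32844136-32859851, plus strand) measured 1.25 CPM in LNCaP and 2.27 in LNCaP-ENZ48, against 1.54 in RES-B and 2.16 in RES-A. It did not share the drop in RES-A, where its log2 ratio to LNCaP was 0.79 (0.34 to 1.25). PSMB9 overlaps PSMB8-AS1 on its own strand, so its level is uncertain.

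As a share of each subunit pair, PSMB8 made up 0.751% of PSMB8 and PSMB5 UMIs in LNCaP and 1.18% in LNCaP-ENZ48, against 1.85% in RES-B and 0.152% in RES-A. PSMB9 made up 0.631%, 0.986%, 0.643% and 0.769% of PSMB9 and PSMB6 UMIs in the same order, with overlapping intervals for LNCaP, RES-A and RES-B. PSMB10, the remaining immunoproteasome subunit, made up 6.44% of PSMB10 and PSMB7 UMIs in LNCaP and 3.68% in LNCaP-ENZ48, against 3.46% in RES-B and 6.67% in RES-A. The PSMB9 intervals of LNCaP-ENZ48 and RES-A overlapped as well. For PSMB10, the interval of LNCaP overlapped that of RES-A, and the interval of LNCaP-ENZ48 overlapped that of RES-B. By their point values the 3 subunits followed 3 different orders, but only the order of PSMB8 was clear of counting error in all 4 libraries. The standard subunits dominated every library by UMIs.

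NLRC5, the activator that drives class I promoters (chr16:56989485-57083531, plus strand), measured 1.35 CPM in LNCaP and 1.38 in LNCaP-ENZ48, against 2.72 in RES-B and 2.41 in RES-A. The resistant lines lay above the sensitive libraries, at log2 ratios to LNCaP of 0.83 (0.40 to 1.27) and 1.01 (0.58 to 1.44). RES-A and RES-B did not differ beyond counting error (0.18, -0.17 to 0.52). NLRC5 counts were low, 68 to 143 UMIs per library, and the order depended on the cells taken. In cells called G1 alone, the log2 ratio of RES-A to LNCaP was 0.47 (-0.14 to 1.10, from 58 and 39 UMIs), no longer beyond counting error, and that of RES-B to RES-A was 0.63 (0.14 to 1.13), which was.

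**Figure D2:**
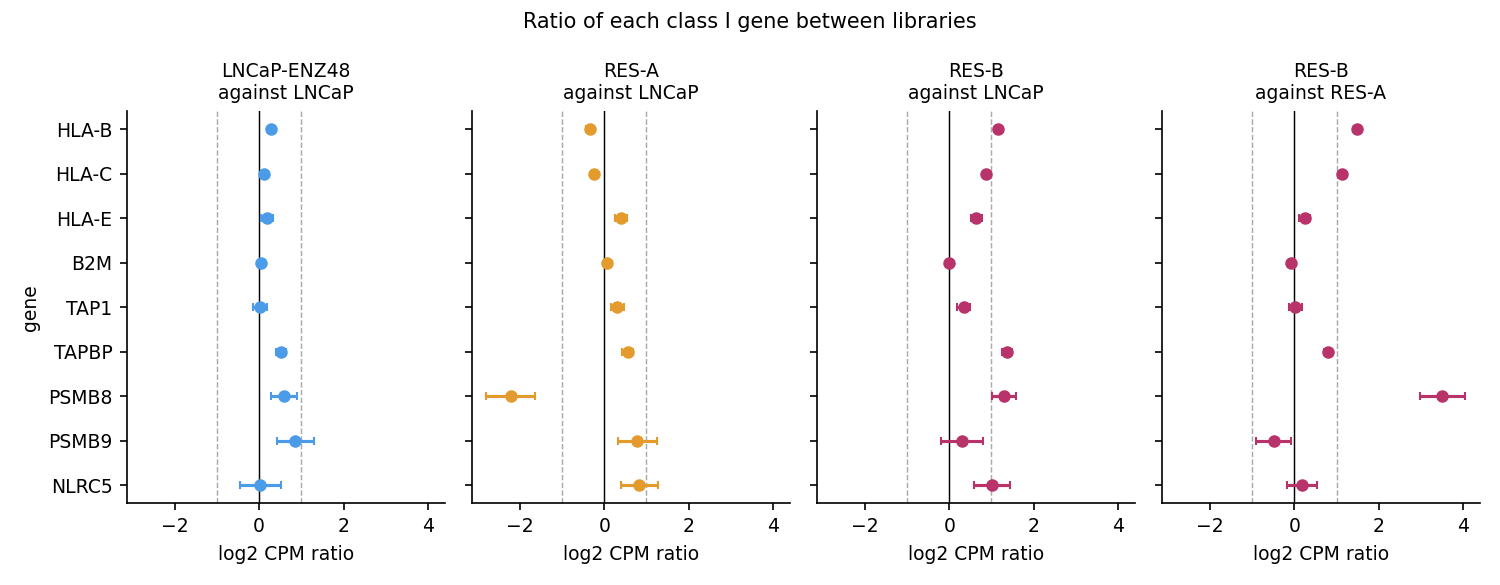
Log2 CPM ratio of each class I gene in the 4 comparisons, with exact 95% intervals from the counts; dashed lines mark 2-fold. HLA-B, TAPBP, PSMB8 and NLRC5 pass the line in RES-B against LNCaP, PSMB8 lies at -2.20 in RES-A, and all points of LNCaP-ENZ48 stay inside the lines.

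Next, the members were counted against all genes. After 48 h of ENZ, 0 of 9 members were at least 2-fold higher or lower, where 2.04% of the 12617 genes whose mean reached 1 CPM were. Their median log2 ratio was 0.16 over the 6 members whose mean reached 10 CPM (B2M, HLA-B, HLA-C, HLA-E, TAP1 and TAPBP), against -0.07 over 7460 genes. In RES-A against LNCaP, 0 of these 6 members were past 2-fold where 7.95% of genes were, with a median of 0.19 against 0.02. Down to 1 CPM, 1 of 9 members (PSMB8) was lower where 6.87% of genes were, and 0 of 9 higher where 7.89% were.

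In RES-B against LNCaP, 2 of the 6 members (HLA-B and TAPBP) were at least 2-fold higher, where 4.73% of genes were, and their median log2 ratio was 0.76 against 0.11 over all genes. Down to 1 CPM, 4 of 9 members (with PSMB8 and NLRC5) were higher where 7.92% of genes were, and 0 of 9 lower where 5.32% were. NLRC5 was just past the threshold, and at TMM scaling its log2 ratio was 0.90. In RES-B against RES-A, 2 of the 6 (HLA-B and HLA-C) were higher where 3.47% of genes were, with a median of 0.52 against 0.09. Down to 1 CPM, 3 of 9 (with PSMB8) were higher where 5.43% were, and 0 of 9 lower where 4.03% were. The comparisons with LNCaP share 1 library, and the last shares RES-A and RES-B with the others.

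To see whether the sums reflected many cells or few, each cell was thinned to 5000 UMIs and the cells with at least 1 UMI of each member were counted. HLA-B was found in 21.9% of LNCaP cells and 26.9% of LNCaP-ENZ48, against 41.8% of RES-B and 17.9% of RES-A. HLA-C was found in 37.3%, 41.7%, 57.9% and 32.3% in the same order. Shares thus followed the levels, and RES-B was again highest with an interval clear of the others. Before thinning, HLA-B was found in 72.6% of LNCaP and 70.4% of RES-B cells, at median depths of 27079 and 12285 UMIs per cell.

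B2M was found in 73.2% to 77.9% of thinned cells, and TAPBP in 8.14% of LNCaP and 11.7% of LNCaP-ENZ48 cells, against 19.2% of RES-B and 10.8% of RES-A cells. HLA-E was found in 6.84% to 9.83% and TAP1 in 5.03% to 6.45% of cells, both highest in RES-B. The RES-B interval of HLA-E overlapped those of LNCaP and RES-A, and that of TAP1 overlapped those of every other library. PSMB8 was found in 1.35% of LNCaP and 2.20% of LNCaP-ENZ48, against 3.30% of RES-B and 0.241% of RES-A cells. PSMB9 and NLRC5 were found in 0.617% to 1.26% of cells, too few for an order. No cell type lacking class I was present to set a background from free RNA. PTPRC, which these cells should lack, was found in none of 14727 cells, which gives no measure of free class I RNA.

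**Figure D3:**
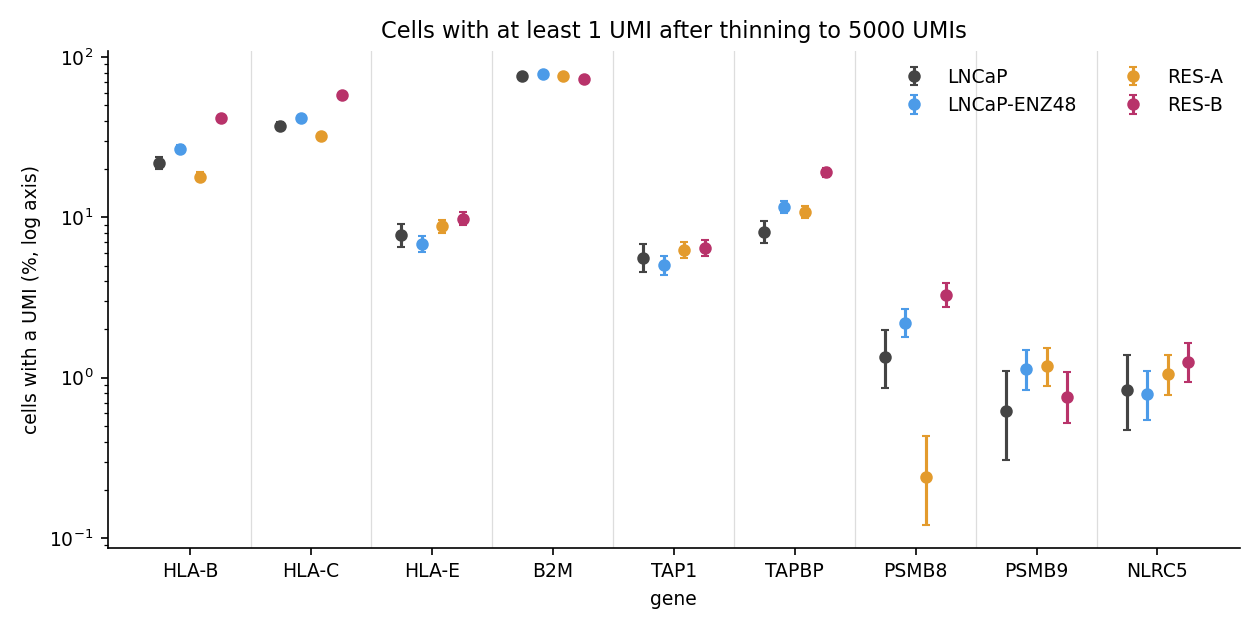
Share of cells with at least 1 UMI of each gene after thinning every cell to 5000 UMIs, in percent on a log axis, with exact 95% binomial intervals. RES-B has the highest share for HLA-B (41.8%), HLA-C (57.9%), TAPBP (19.2%) and PSMB8 (3.30%).

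Among single cells, the HLA-B and HLA-C UMIs were then added up. The mean per thinned cell was 0.726 in LNCaP and 0.867 in LNCaP-ENZ48, against 1.53 in RES-B and 0.601 in RES-A. Cells with none made up 49.5%, 43.6%, 26.2% and 56.7% of the libraries in that order. The RES-B cells thus had fewer zeros, and their distribution also had a long upper end. Its variance was 1.91 times its mean, against 1.04 to 1.14 in the other libraries, where a value near 1 is what random sampling of molecules gives.

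No LNCaP cell held more than 6 HLA-B and HLA-C UMIs. Above that value lay 1 LNCaP-ENZ48 cell, 1 RES-A cell and 33 RES-B cells, or 0.813% of RES-B (0.560% to 1.14%), with up to 47 UMIs. These 33 cells carried 3.99% of the library's HLA-B and HLA-C UMIs, and without them the log2 ratio of HLA-B in RES-B to LNCaP was 1.07 and that of HLA-C 0.83. The RES-B variance was then 1.14 times its mean, beside 1.04 to 1.13 in the other libraries cut at the same value. Leaving out the highest values lowers this ratio by construction, so the fall does not show a separate group of cells. The 33 cells had fewer UMIs than the rest (median 9537 against 12304) and a lower mitochondrial share (9.06% against 12.2%). They had no UMI of any leukocyte marker, and 32 of them were called G1.

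The 33 cells had been chosen on HLA-B and HLA-C, so the other genes are given as a description. B2M was at 980 CPM in them (873 to 1096) against 305 in the rest of RES-B. HLA-E was at 103 CPM (70.3 to 145) against 21.0. TAP1 was at 51.4 CPM (29.4 to 83.5) against 13.5 and PSMB9 at 25.7 (11.1 to 50.6) against 1.40, from 16 and 8 UMIs. B2M, flat between libraries, was thus higher in these cells together with HLA-E, TAP1 and PSMB9.

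TAPBP was at 45.0 CPM (24.6 to 75.4) in the 33 cells against 42.4, and the interferon-responsive gene ISG15 was at 106 (73.0 to 149) against 81.1. IRF1, which binds class I promoters, had 4 UMIs in them, 12.8 CPM (3.50 to 32.9) against 2.68. PSMB8 and NLRC5 had 5 and 3 UMIs there, and the interval of each included the level of the other cells.

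**Figure D4:**
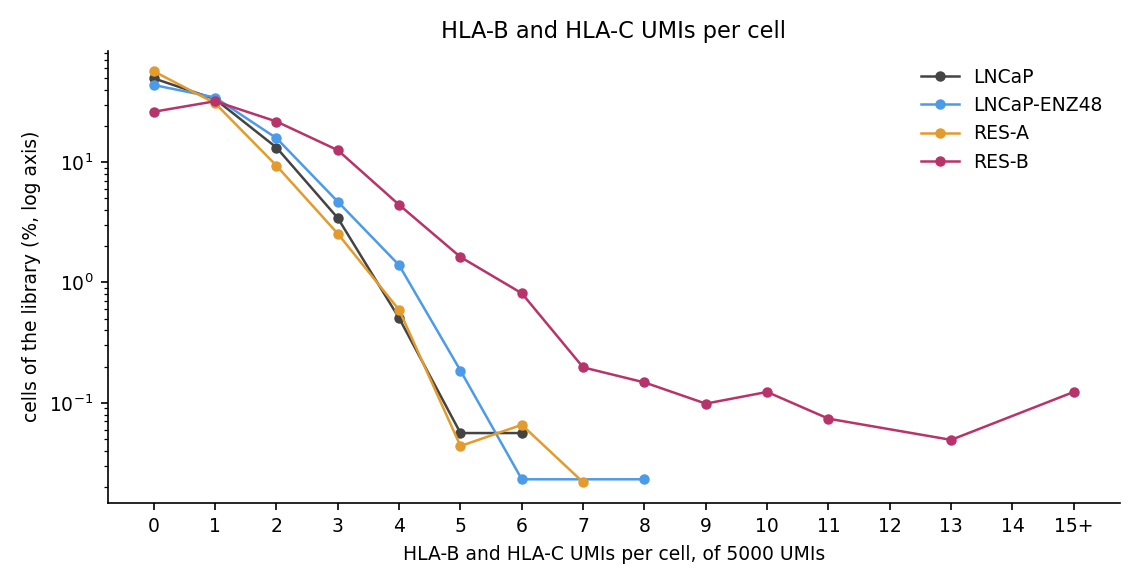
Share of cells in each library, in percent on a log axis, by their summed HLA-B and HLA-C UMIs after thinning to 5000 UMIs; values with no cell have no point, and the last bin holds 15 or more. RES-B has fewer cells at 0 (26.2%) and extends past 15, while LNCaP ends at 6.

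Across all 36 pairs of members, correlations over single cells were weak, with Pearson's r from -0.05 to 0.05 in LNCaP (n = 1782 cells) and from -0.02 to 0.12 in RES-B (n = 4061), all pairs sharing library, depth and sparse counts. The highest was HLA-B with HLA-C in RES-B. At this depth such values carry no finding.

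By cell cycle phase, called from S and G2/M gene scores, 68.6% to 83.0% of cells were in G1, and for B2M, HLA-B and HLA-C the log2 ratio of G2/M to G1 lay between -0.30 and 0.20. NLRC5 differed between phases in every library: in G2/M cells it was at 2.27 CPM in LNCaP and 3.25 in LNCaP-ENZ48, against 4.35 in RES-B and 4.95 in RES-A. The G1 cells of the same libraries, in that order, were at 1.11, 1.13, 2.38 and 1.54 CPM. Its log2 ratio of G2/M to G1 was 0.87 to 1.69, and all 4 intervals lay above 0. HLA-E lay the other way, with log2 ratios of -0.62 to -0.22. Its interval reached 0.06 in LNCaP and lay below 0 in the other libraries. Other members differed in some libraries only. PSMB9 was higher in G2/M in LNCaP-ENZ48 (1.37, 0.78 to 1.94) and RES-A (0.63, 0.02 to 1.22), with intervals including 0 in LNCaP and RES-B. TAPBP was lower in RES-A (-0.32, -0.53 to -0.12) and RES-B (-0.41, -0.57 to -0.24), and PSMB8 higher in RES-A (1.31, 0.18 to 2.42). How many of all genes differed between phases was not counted. In RES-B, HLA-B was at 123 CPM in G1, 90.2 in S and 99.6 in G2/M cells, each above every phase of the other libraries. G1 cells alone gave a log2 ratio of HLA-B to LNCaP of 1.22.

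Of the members, 7 lie in the major histocompatibility complex on chromosome 6, so the genes around them were examined. Among the 50 nearest expressed protein-coding genes of HLA-B outside the pathway lists, which reach 2.89 Mb, the median log2 ratio of RES-B to LNCaP was 0.34 above that of all expressed protein-coding genes, and HLA-B itself was 1.03 above it. HLA-C was 0.75 and TAPBP 1.24 above the same reference, beside medians of 0.34 and 0.30 for their neighbours. In RES-A the neighbours of HLA-B stood at 0.02, and HLA-B at -0.36. The region as a whole was thus somewhat higher in RES-B, and HLA-B, HLA-C and TAPBP lay above it, whereas TAP1 at 0.22 lay below its neighbours' 0.33.

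Within 3 Mb of the HLA-B start, 3 of 53 expressed genes outside the lists were at least 2-fold higher in RES-B than in LNCaP. That is near the share over all genes, 4.73% at a mean of 10 CPM. Of the 53, 1 was lower, where 5.32% of all genes down to 1 CPM were, a lower cut than that of the 53. It was the class II gene HLA-DQB1, which the class II list did not hold, at a log2 ratio of -1.12 (-0.61 in RES-A). The class II gene HLA-DMA lies in the same window but was left out as a list gene. Its log2 ratio to LNCaP was -1.38 in RES-B and -2.03 in RES-A. Among the 3, DAXX starts beside TAPBP and had a log2 ratio of 1.505. Around PSMB8 the neighbours stood at 0.03 in RES-A, against -2.22 for PSMB8 itself. B2M gave the opposite picture on chromosome 15: its 50 neighbours, within 4.68 Mb, had a median 0.48 below all genes in RES-A and 0.41 below in RES-B, with B2M at 0.05 and -0.14. NLRC5's neighbours on chromosome 16 stood at -0.07 in RES-A and -0.03 in RES-B, against 0.81 and 0.89 for NLRC5. DNA copy number was not measured in these libraries.

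**Figure D5:**
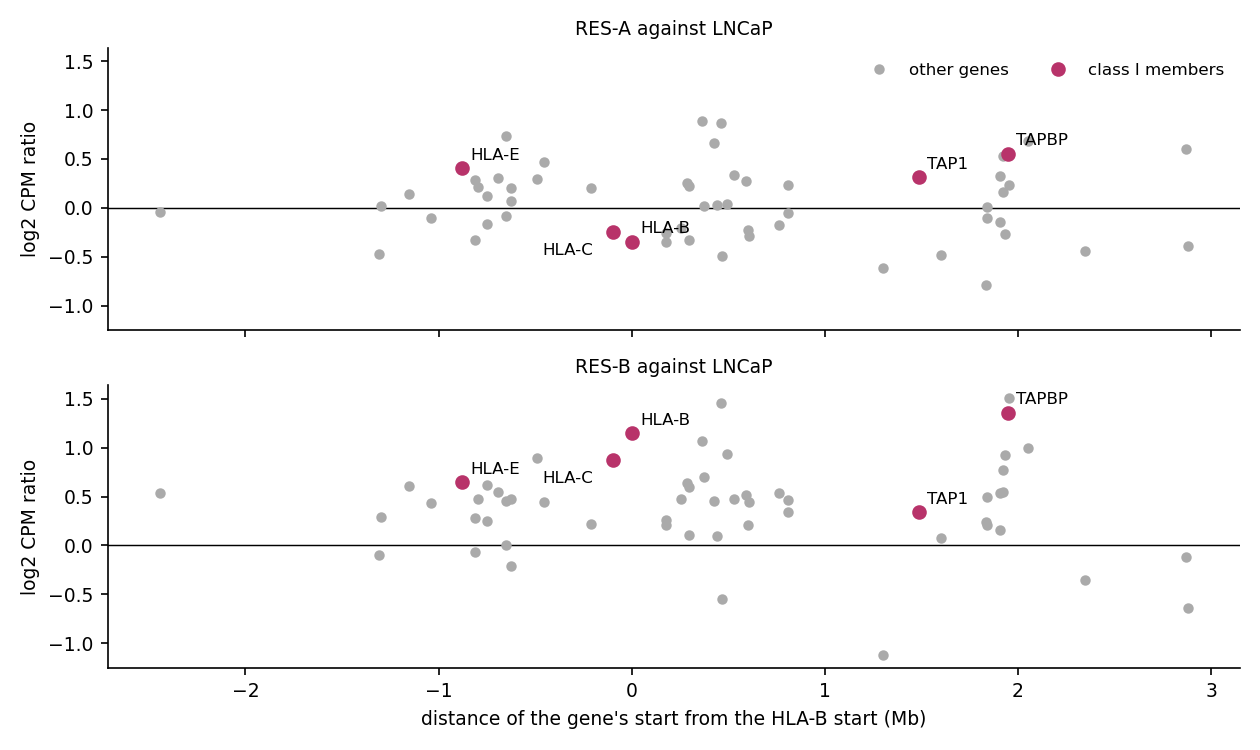
Log2 CPM ratio of expressed genes to LNCaP in RES-A (top) and RES-B (bottom) by the distance of their start from the HLA-B start, in Mb, for members (coloured) and for genes outside the pathway lists (grey) whose mean reached 10 CPM. In RES-B most grey genes lie above 0, HLA-B (1.14) and TAPBP (1.36) near the top among them, and in RES-A the genes scatter around 0.

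Other genes of class I presentation were then compared, from lists cut to genes whose mean reached 1 CPM. In RES-B 3 of 12 were at least 2-fold higher than in LNCaP and 0 lower, where 7.92% and 5.32% of all genes were. They were CALR, a chaperone of the loading complex, at 1012 CPM against 337, the peptide-trimming enzyme ERAP1 at 4.28 against 1.49, and the tapasin relative TAPBPL at 5.52 against 1.79.

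In RES-A 3 of 12 were higher, ERAP1, TAPBPL and the proteasome activator PSME2, and 1, HLA-F, was lower, at 1.03 CPM against 2.83, where 7.89% and 6.87% of all genes were. HLA-F, a nonclassical heavy chain, was thus lowest in RES-A, as the classical ones were, and lay at 4.91 CPM in RES-B. TAP2, the partner of TAP1, measured 7.97 CPM in LNCaP and 5.69 in LNCaP-ENZ48, against 5.73 in RES-B and 5.28 in RES-A, so it lay lower in the 3 libraries given ENZ while TAP1 did not. None of the 12 was past 2-fold in LNCaP-ENZ48, where only 2.04% of all genes were.

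Of 16 regulators of class I transcription, 1 was past 2-fold in RES-A against LNCaP, RFX5, a subunit of the factor on which NLRC5 assembles, at 11.0 CPM against 23.3. None of the 16 was in RES-B, where RFX5 was at 12.9 CPM. Neither count lies far from the shares of all genes past 2-fold in these comparisons, 6.87% lower in RES-A and 7.92% higher in RES-B. IRF1 was at 4.60 CPM in LNCaP and 8.55 in LNCaP-ENZ48, against 2.74 in RES-B and 6.30 in RES-A.

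Among 8 interferon receptors and kinases, 1 was at least 2-fold higher and 1 lower in each resistant line, near the same shares. The kinase JAK2 was lower in both resistant lines, at 2.58 CPM in RES-A and 3.52 in RES-B against 8.84 in LNCaP. The inhibitor SOCS1 was higher in both, at 2.72 and 2.02 against 0.777. JAK1, in which LNCaP is known to be deficient, measured 2.75 CPM in LNCaP and 2.75 in LNCaP-ENZ48, against 4.87 in RES-B and 3.35 in RES-A, highest in RES-B. Of 12 interferon-stimulated genes, 1 was higher in RES-B (OAS1) and 2 were lower (IFI35 and IFITM3), with a median log2 ratio of -0.24. In RES-A 2 were higher, with IFI27 at 7.13 CPM against 0.418, and 1 was lower, IFITM3 at 35.0 against 79.2. The median log2 ratio of the list in RES-A was 0.30. Counts of 1 in 12 are near the shares of all genes past 2-fold (5.32% to 7.92%), while counts of 2 lie above them but rest on 2 genes each.

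Of the 8 genes of the class II list, whose products serve peptide presentation to CD4 T cells, 3 had a mean of 1 CPM or more. HLA-DMA measured 20.3 CPM in LNCaP and 13.9 in LNCaP-ENZ48, against 7.76 in RES-B and 4.95 in RES-A, and HLA-DMB 12.7, 9.65, 3.995 and 2.11 in the same order. Both lay lower in the resistant lines, unlike HLA-E and TAP1, while HLA-DRB1 lay higher, at 2.08 CPM in RES-A and 1.52 in RES-B against 0.657 in LNCaP. CD74, the invariant chain of class II molecules, was at or below 0.0349 CPM in every library.

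Across the 4 libraries, the summed members were at 507 CPM in LNCaP and 550 in LNCaP-ENZ48, against 687 in RES-B and 510 in RES-A. The genes whose pattern was nearest by the Euclidean distance of centred log2 levels were PPT1 (0.02), AFF4 (0.04), TMEM9 (0.05), FAM222B (0.05) and ATN1 (0.05). With 4 points and 7460 genes, close matches occur widely, and nothing about shared control follows.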

How the data were processed

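Living cells had been sorted and their 3' transcript ends sequenced in droplets. The authors made UMI counts per gene and barcode with Cell Ranger 3.0.2 against a prebuilt GRCh38 reference, and these counts were used as deposited. Cells were kept by the study's limits per library on detected genes (3000 to 7000 in LNCaP, 1500 to 5000 elsewhere), UMIs (16000 to 50000, or 5000 to 25000) and mitochondrial share (under 15% in both sensitive libraries, 17% in RES-A, 20% in RES-B). This kept 4061 of 4907 RES-B, 4569 of 5156 RES-A, 4315 of 4812 LNCaP-ENZ48 and 1782 of 2358 LNCaP barcodes. The limits differ, which adds to the greater depth of the LNCaP cells. Doublets were not removed.

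Levels were CPM of summed UMIs with exact Poisson intervals, and ratios had exact binomial intervals conditional on both counts, after a check on simulated counts. Sampling error only was covered, at the 95% level, and 1 library per group allowed no test. Shares were taken after thinning each cell to 5000 UMIs, with Clopper-Pearson intervals. Phases were scored in scanpy 1.11.5 on the thinned cells. Alternative scalings were TMM (edgeR 4.0.16) and median-of-ratios (DESeq2 1.42.0), used for scaling factors only. Coordinates came from GENCODE 44 (GRCh38), where 33113 of 33538 gene IDs were found.

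All 9 members were named. From the other lists, genes past 2-fold were named, at most 6 per list by size, and TAP2, PSMB10, JAK1 and IRF1 always; genes were also named by likeness across libraries and cells, 5 each. Some genes that the rule covers are not reported here. The cells above every LNCaP cell, and the genes described in them, were chosen after their values were seen, as were DAXX and HLA-DQB1. Members and lists were chosen with earlier results of these data known.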

Additional observations from a re-analysis of the deposited data

How the results depend on the processing

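The 36 log2 ratios of members were recomputed under 7 other settings: all barcodes, 1 common cell filter, TMM scaling, median-of-ratios scaling, G1 cells, leaving out the 5% of cells with most UMIs, and weighting cells equally. None of the 252 values reversed a ratio whose interval excluded 0. The direction was kept in 242, and 27 left the main interval. TMM scaling moved the median of all genes by -0.11 on the log2 scale in RES-B against LNCaP. The median over members in RES-B against LNCaP was then 0.65, and 0.66 with median-of-ratios scaling. With a filter of 1 CPM, or none, the median over 9 members was 0.87 in RES-B and 0.31 in RES-A against LNCaP, and 0.24 in RES-B against RES-A, because 3 low genes entered. The number of members past the fold became 4 in RES-B against LNCaP both at 1.5-fold and at 1 CPM, and 1 in RES-A against LNCaP at 1 CPM. In G1 cells the PSMB9 share of LNCaP-ENZ48 was 0.801%, against 0.986% in all cells. No paired analysis was possible because each group had 1 library. The largest change of any member ratio was 0.45, for NLRC5 in RES-B against RES-A in G1 cells. Depth limits PSMB8, PSMB9 and NLRC5 most, with 34 to 352 UMIs per library.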

Other observations

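In the 33 RES-B cells above every LNCaP cell in HLA-B and HLA-C, some genes outside the class I pathway also differed, and these were picked after their values were seen. CDKN1A, an inhibitor of the cell cycle, was at 206 CPM (158 to 263, from 64 UMIs in 18 of the cells) against 18.1 in the other RES-B cells. GDF15, a stress-induced secreted factor, was at 944 CPM (839 to 1059) against 285. MKI67, a marker of cycling cells, was at 9.64 CPM from 3 UMIs against 58.1. The luminal keratin KRT18 was at 1253 CPM against 916.

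Within libraries, the genes whose values in single cells ran closest to the mean of the members, out of 6292 genes, included MYL6, GAPDH, KRT18 and ACADVL, ranked by their lowest Pearson's r over the 4 libraries. That lowest r was 0.05 for MYL6 and 0.03 for ACADVL. Values this low in sparse counts are given as a description.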
